A study of Mus musculus with 6 samples.

Results

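The immunoglobulin lambda light chain genes of the mouse were followed here in spleen RNA as 6 members, the constant region genes Iglc1, Iglc2 and Iglc3 and the variable segments Iglv1, Iglv2 and Iglv3. They were chosen by name, and all 6 were found among the 47729 genes of the count table and passed the filter on low counts. Spleens came from females of NOD.B10 (NOD.B10Sn-H2b/J), a strain that develops a disease like primary Sjögren's syndrome (pSS), and of BL/10 (C57BL10/SnJ), the healthy control strain, with 3 mice each, no treatment and no transgene. Both strains carry the b haplotype of the mouse MHC. The protocol label gives an age of 26 weeks for both strains.

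The labels conflict on the strain of every library. The sample descriptions and the column names of the table place libraries 1, 2 and 3 in NOD.B10 and libraries 7, 8 and 9 in BL/10, whereas the sample titles and strain fields name the opposite strain. The descriptions and column names were followed here, and every direction given would be reversed under the titles. The age field of BL/10 replicates 2 and 3 reads 36 weeks, so that among BL/10 libraries only replicate 1 was labelled 26 weeks. These age fields stand in the same sample records as the titles and strain fields that were not followed. Whether the 36 weeks belong to these mice cannot be told from the labels.

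The libraries held between 15662712 and 18298451 counted reads, and the detection floor used here, 3 reads, came to at most 0.201 CPM (the count scaled to the size of its library, by the TMM method of edgeR). Genes that mark splenic B cells and macrophages were read in every library. BL/10 spleens also held pancreas acinar transcripts, with a summed level over 13 genes of 12932, 2006 and 109 CPM in replicates 1, 2 and 3 against 22.1 to 31.0 CPM in NOD.B10. All 10 neutrophil markers were lower in NOD.B10 at an adjusted p under 0.05 (edgeR), where 8.22% of all tested genes were. Their summed level was 2140 to 2472 CPM against 6140 to 12844 CPM. The summed level of 9 erythroid markers overlapped between strains (from 25341 to 45230 CPM in NOD.B10 against 27810 to 62910 CPM in BL/10). When pancreas acinar genes, or immunoglobulin and hemoglobin genes, were left out of the scaling of libraries, the fold changes of the lambda genes hardly moved (Iglc2 had a log2 fold change of 0.48 in the main comparison and in both settings). Any other part of these differences in the results was not tested. In a piece of whole spleen, fewer cells of a type and less RNA per cell cannot be told apart.

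An antibody is built from heavy chains and light chains, and each B cell uses a light chain of either the kappa or the lambda type. A lambda chain gene is assembled when a variable segment is joined to a joining segment in the DNA of a developing B cell, after which the transcript is spliced to the constant region behind it. In mice the lambda locus is small and lambda chains are the minority, in contrast to the many variable segments of the kappa locus. B cells carry these chains in their surface receptor, and plasma cells make large amounts of them for secretion.

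The lambda locus lies on chromosome 16 of build GRCm38 and is transcribed from the minus strand. From 5′ to 3′, Iglv2 (ENSMUSG00000076940, chr16:19260401-19260859) comes first, followed by Iglv3 (ENSMUSG00000076939, chr16:19241207-19241690) and the constant region gene Iglc2 (ENSMUSG00000076937, chr16:19198396-19200351). The joining segment Iglj2 and the pseudogenes Iglj4 and Iglc4 belong to this cluster. The other cluster starts with Iglv1 (ENSMUSG00000076934, chr16:19085017-19085500) and ends with Iglc3 (ENSMUSG00000105547, chr16:19065230-19065681) and Iglc1 (ENSMUSG00000105906, chr16:19061618-19062071), each behind a joining segment of its own number. All 12 annotated genes fit within 199 kb. The variable segments have 2 exons, one for the leader and one for the domain, and the coding part of each constant region is a single exon.

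**Figure D1:**
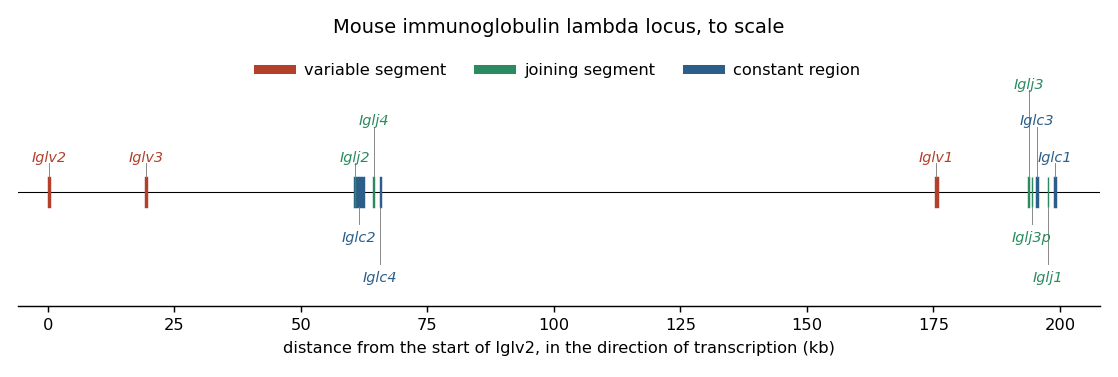
Map of the 12 annotated lambda genes, drawn to scale as distance in kb from the start of Iglv2 in the direction of transcription, with variable segments in red, joining segments in green and constant regions in blue. Iglv2 and Iglv3 lie upstream of Iglc2, whose box also spans Iglj2, and Iglv1 lies 175 kb downstream of Iglv2, ahead of Iglc3 and Iglc1.

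The coding sequences show which of these genes a short read can tell apart, and those on which the counts depend most are printed here 5′ to 3′ from the GENCODE M21 transcripts. Iglc3 is compared with Iglc2, its nearest relative, and capitals mark the bases that differ from Iglc2. The first 300 coding bases of each gene are shown, except that Iglc3 lacks the first base of Iglc2 in its annotation (coding parts chr16:19198539-19198853 and chr16:19065368-19065681, both on the minus strand).
Iglc2: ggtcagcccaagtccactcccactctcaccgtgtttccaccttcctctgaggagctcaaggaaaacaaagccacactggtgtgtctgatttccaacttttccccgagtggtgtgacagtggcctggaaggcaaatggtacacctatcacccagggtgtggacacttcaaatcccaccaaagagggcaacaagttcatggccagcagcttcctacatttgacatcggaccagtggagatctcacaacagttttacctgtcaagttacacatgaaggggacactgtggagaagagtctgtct
Iglc3: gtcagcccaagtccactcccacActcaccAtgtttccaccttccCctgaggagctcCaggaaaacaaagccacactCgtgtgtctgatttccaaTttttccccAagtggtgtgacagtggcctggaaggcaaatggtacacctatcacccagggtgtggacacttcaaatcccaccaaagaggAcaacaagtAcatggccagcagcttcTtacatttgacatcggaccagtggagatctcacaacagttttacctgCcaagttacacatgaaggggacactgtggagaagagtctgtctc
Iglv2 is likewise compared with Iglv1, and capitals mark the bases that differ from Iglv1, of which 8 of 11 fall in the stretch shown (coding exons within chr16:19085017-19085460 and chr16:19260401-19260844, minus strand).
Iglv1: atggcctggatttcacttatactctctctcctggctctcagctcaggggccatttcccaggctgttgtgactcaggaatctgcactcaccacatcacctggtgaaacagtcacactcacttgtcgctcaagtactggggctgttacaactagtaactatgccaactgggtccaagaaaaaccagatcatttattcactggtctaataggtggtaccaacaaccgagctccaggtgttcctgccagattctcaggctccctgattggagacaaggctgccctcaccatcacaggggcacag
Iglv2: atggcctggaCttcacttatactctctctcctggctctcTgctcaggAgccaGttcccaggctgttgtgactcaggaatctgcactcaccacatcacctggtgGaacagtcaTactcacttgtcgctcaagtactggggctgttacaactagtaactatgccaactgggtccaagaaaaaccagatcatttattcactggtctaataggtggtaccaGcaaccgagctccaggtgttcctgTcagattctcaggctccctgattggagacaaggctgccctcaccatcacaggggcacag
Iglv3, which has no close relative and is the segment that differed most between libraries, is shown without marks (coding exons within chr16:19241207-19241679, minus strand).
Iglv3: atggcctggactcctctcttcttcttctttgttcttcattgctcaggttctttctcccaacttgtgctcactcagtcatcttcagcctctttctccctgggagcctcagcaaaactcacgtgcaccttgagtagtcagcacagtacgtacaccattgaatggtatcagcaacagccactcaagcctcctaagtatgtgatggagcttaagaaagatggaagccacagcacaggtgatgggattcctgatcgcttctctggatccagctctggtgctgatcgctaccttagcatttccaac

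Iglc2 and Iglc3 were identical at 303 of 315 aligned coding positions (96.2%), and Iglv1 and Iglv2 at 340 of 351 (96.9%). Iglc1 shared 73.4% of positions with Iglc2, and Iglv3 shared 55.4% with Iglv1. Reads were 50 bases long, and reads that fit several places were left out of the counts. Of all 50-base windows in the annotated transcripts of Iglv1 and Iglv2, 76 were found in both genes, leaving 266 of 342 windows to Iglv1 alone and 285 of 361 to Iglv2 alone. Iglc2 and Iglc3 shared 43 windows. Another 47 windows of Iglc3 also occurred in a transcript of 2010309G21Rik, searched on both strands, so that 313 of the 403 windows of Iglc3 remained. Whether reads from these 47 windows were counted was not tested. All 405 windows of Iglc1 and all 332 of Iglv3 occurred in no other annotated transcript. Within 2 mismatches, 78.1% of Iglv1 windows, 74.0% of Iglv2 windows, 50.9% of Iglc3 windows and 36.5% of Iglc2 windows matched another light chain gene, and none of Iglc1 or Iglv3. A read that differs from the reference could thus be lost or be credited to the relative, so the counts of Iglc2, Iglc3, Iglv1 and Iglv2 are uncertain in either direction. The effect of sequence differences between NOD.B10 and the C57BL/6J reference was not tested.

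None of the 6 lambda genes differed between the strains at an adjusted p under 0.05 (edgeR's quasi-likelihood test, Benjamini-Hochberg adjustment over 15330 genes), in a comparison in which 17.3% of all tested genes did. Among the 6 genes, 1 had an unadjusted p under 0.05 (Iglv3), and DESeq2 and limma-voom each called 0 of the 6. The median log2 fold change (NOD.B10 over BL/10) was 0.18 for the lambda genes and 0.00060 for all tested genes. The libraries of the strains overlapped for all 6 genes, whereas 38.0% of all tested genes had strains that did not overlap (20.5% with NOD.B10 above and 17.5% with NOD.B10 below).

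The constant region genes encode the part of the chain that is the same in all lambda chains of that type. Iglc1 was counted at 238, 390 and 265 CPM in NOD.B10 replicates 1, 2 and 3 and at 487, 276 and 228 CPM in BL/10 replicates 1, 2 and 3. BL/10 replicate 1 was the highest and BL/10 replicate 3 the lowest of the 6 libraries, with the NOD.B10 libraries between them. The means were 298 ± 81.3 CPM in NOD.B10 and 330 ± 138 CPM in BL/10 (SD, n = 3), a log2 fold change of -0.15 (SE 0.30, edgeR adjusted p = 0.763). Without BL/10 replicate 1, the log2 fold change of Iglc1 was 0.24 (edgeR adjusted p = 0.466).

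Iglc2, the constant region used with Iglv2 and Iglv3, was counted at 396, 419 and 711 CPM in NOD.B10 and at 503, 278 and 310 CPM in BL/10. NOD.B10 replicate 3 stood above all others, and BL/10 replicate 1 was second. The means were 509 ± 175 and 364 ± 122 CPM (SD, n = 3), a log2 fold change of 0.48 (SE 0.29, edgeR adjusted p = 0.279). Without NOD.B10 replicate 3 this value was 0.17, and without BL/10 replicate 1 it was 0.78 (edgeR adjusted p = 0.730 and 0.0603).

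Iglc3 was the least abundant constant region, with 111, 103 and 130 CPM in NOD.B10 and 142, 93.1 and 89.2 CPM in BL/10. Its means of 115 ± 13.9 and 108 ± 29.3 CPM (SD, n = 3) differed by less than the spread within BL/10 (log2 fold change 0.09, SE 0.19, edgeR adjusted p = 0.770).

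Among the variable segments, which encode the antigen-binding domain, Iglv1 was counted at 221, 336 and 248 CPM in NOD.B10 and at 355, 235 and 169 CPM in BL/10. As for Iglc1, to which it can be joined, NOD.B10 replicate 2 and BL/10 replicate 1 were the highest libraries of their strains. The means were 268 ± 60.2 and 253 ± 94.3 CPM (SD, n = 3), with a log2 fold change of 0.08 (SE 0.27, edgeR adjusted p = 0.855). Iglv2 was counted at 116, 151 and 290 CPM in NOD.B10 and at 203, 119 and 143 CPM in BL/10. Its log2 fold change was 0.26 (SE 0.34, edgeR adjusted p = 0.625), and it was -0.21 without NOD.B10 replicate 3, the library with the highest level.

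Iglv3, the segment unlike the others in sequence, showed the widest range. It was counted at 56.2, 79.8 and 307 CPM in NOD.B10 and at 68.7, 49.9 and 51.5 CPM in BL/10. NOD.B10 replicate 3 lay far above the other 5 libraries, which were within 49.9 to 79.8 CPM. The log2 fold change was 1.38 (SE 0.58, edgeR adjusted p = 0.138), with means of 148 ± 139 and 56.7 ± 10.4 CPM (SD, n = 3). Without NOD.B10 replicate 3 it was 0.27 (edgeR adjusted p = 0.461), so the size of the difference rested on 1 mouse.

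**Figure D2:**
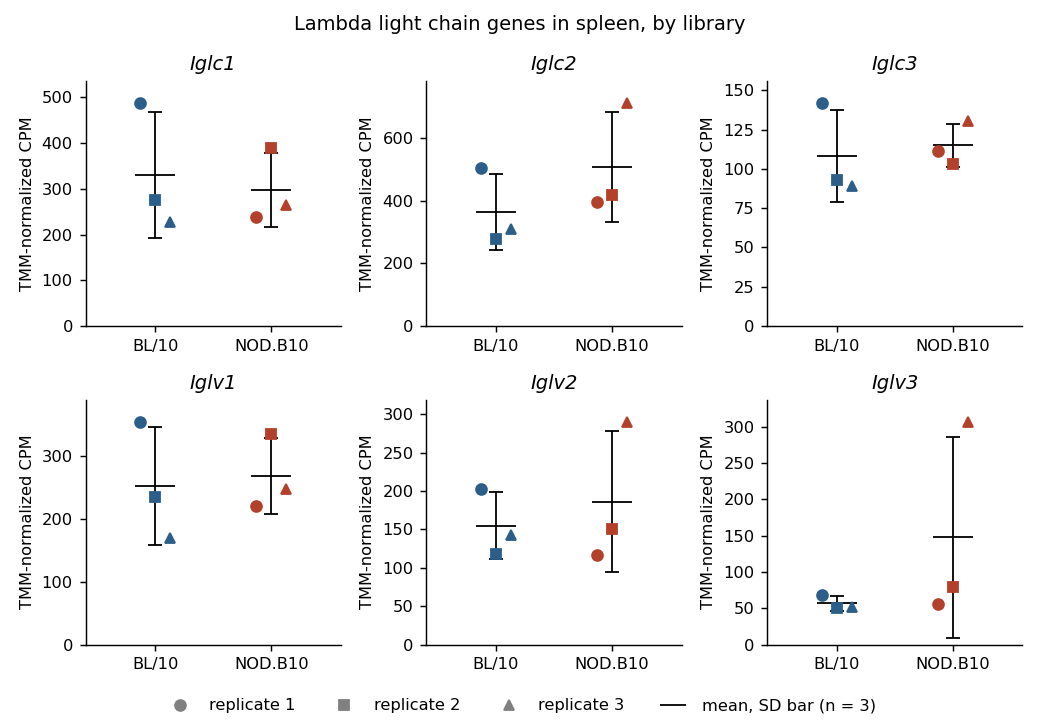
TMM-normalized CPM of the 6 lambda genes in each library (y axis) by strain (x axis), with replicates as different symbols and the mean and SD in black (n = 3). The strains overlap for every gene, and NOD.B10 replicate 3 stands apart at 307 CPM of Iglv3.

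Levels between genes were compared per kb of exon length. For Iglc2 this length (612 bases) includes an annotated exon over Iglj2, apart from the exon that codes for the constant region. The place of Iglc2 in the order depends on that annotation, and levels over the constant region exon alone were not computed. In BL/10 the order was Iglc1 (727 ± 304 CPM per kb, SD, n = 3), Iglv1 (647 ± 241), Iglc2 (595 ± 199), Iglv2 (424 ± 119), Iglc3 (239 ± 64.8) and Iglv3 (149 ± 27.4). Only the steps from Iglv2 to Iglc3 and from Iglc3 to Iglv3 were larger than the combined SD of both genes. In NOD.B10 the order was Iglc2 (831 ± 287 CPM per kb), Iglv1 (686 ± 154), Iglc1 (656 ± 179), Iglv2 (508 ± 251), Iglv3 (388 ± 364) and Iglc3 (254 ± 30.8), and no step between neighbors was larger than the combined SD. Per window of 50 bases found in no other gene, Iglv1 ranked first of the lambda genes in both strains and Iglc3 stayed below the other constant regions. The kappa constant region Igkc stood far above all of them on the per kb scale, at 20922 ± 2149 CPM per kb in NOD.B10 and 11477 ± 1477 CPM per kb in BL/10.

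The question of light chain use was addressed next, as the share of lambda among light chain constant region reads (Iglc1, Iglc2 and Iglc3 over these and Igkc). Both parts of this share come from the same library, so it does not depend on the scaling of libraries. Lambda made up 6.94% (95% Wilson interval 6.82% to 7.06%), 6.92% (6.81% to 7.03%) and 9.04% (8.92% to 9.17%) of these reads in NOD.B10 replicates 1, 2 and 3. In BL/10 replicates 1, 2 and 3 it made up 14.02% (13.8% to 14.2%), 10.7% (10.5% to 10.9%) and 9.48% (9.31% to 9.65%). These intervals cover counting error only. All NOD.B10 libraries lay below all BL/10 libraries, with means of 7.64% ± 1.22 and 11.4% ± 2.35 (SD, n = 3). The difference of -3.77 percentage points gave p = 0.1 in a two-sided exact permutation test, which is the smallest p that 3 libraries against 3 allow, so the threshold of 0.05 could not be reached. The nearest libraries of the strains, NOD.B10 replicate 3 and BL/10 replicate 3, were 9.04% and 9.48%.

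The libraries that were left out mattered for the size of this difference. It was -2.47 percentage points without BL/10 replicate 1, the library with most pancreas transcripts, and -6.38 percentage points when BL/10 replicate 1 was the only BL/10 library kept because the others were labelled 36 weeks. When lambda and kappa variable segments were counted in place of constant regions, the difference was -0.996 percentage points (p = 0.8 in the same exact permutation test). Of the 109 kappa variable segments tested, 40 were higher and 27 lower in NOD.B10, with log2 fold changes from -8.92 to 7.76, where 9.11% and 8.22% of all tested genes were called higher and lower.

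Of the genes in this ratio, Igkc passed the test between strains and none of the lambda genes did. The fold change of Igkc was not tested against those of the single lambda genes. Igkc (ENSMUSG00000076609, chr6:70726435-70726966, plus strand) was counted at 9992, 12278 and 11122 CPM in NOD.B10 and at 6944, 5386 and 5986 CPM in BL/10, with no overlap. It was 1.82-fold higher in NOD.B10 (log2 fold change 0.87, SE 0.16, edgeR adjusted p = 0.0118). With age as a covariate its log2 fold change was 0.68, where strain compares NOD.B10 with BL/10 replicate 1 alone. The summed level of Iglc1, Iglc2 and Iglc3 was 745, 913 and 1106 CPM in NOD.B10 and 1132, 647 and 627 CPM in BL/10, where the strains overlapped. There were 13.4, 13.5 and 10.1 Igkc reads for each lambda constant region read in NOD.B10 and 6.13, 8.33 and 9.55 in BL/10.

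**Figure D3:**
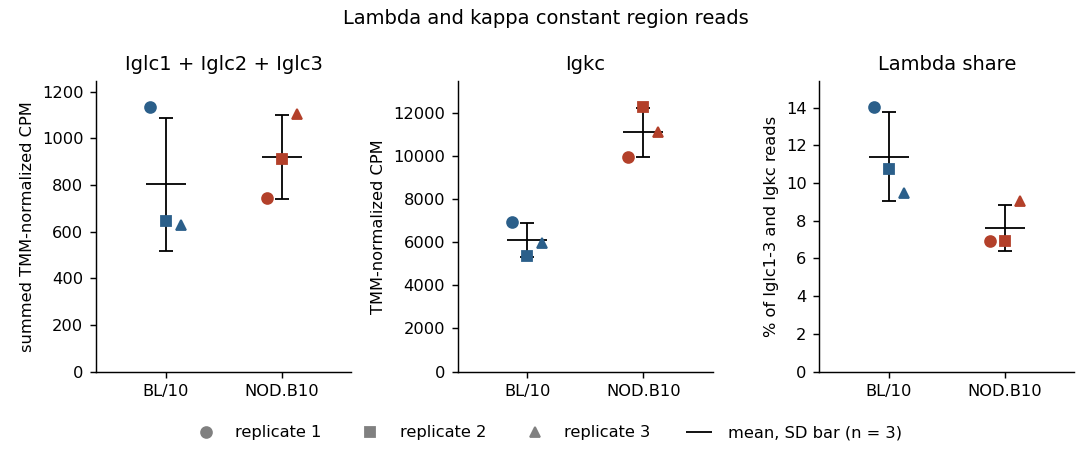
Summed CPM of Iglc1, Iglc2 and Iglc3 (left), CPM of Igkc (middle) and the lambda share of their reads in % (right) by strain, with a symbol for each replicate and the mean and SD in black (n = 3). The lambda sum overlaps between strains, Igkc is higher in all NOD.B10 libraries, and the lambda share is 6.92% to 9.04% in NOD.B10 against 9.48% to 14.02% in BL/10.

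Use within lambda was then compared. Iglc1 made up 31.9%, 42.8% and 24.0% of lambda constant region reads in NOD.B10, against 43.0%, 42.6% and 36.3% in BL/10. The strains overlapped, and the difference of -7.75 percentage points gave p = 0.3 in a two-sided exact permutation test, with -3.29 percentage points without NOD.B10 replicate 3. As a share of reads, not corrected for length, Iglc2 took the most in all 3 NOD.B10 libraries (53.1%, 45.9% and 64.3%) and in BL/10 (44.4%, 43.0% and 49.5%). Iglc3 stayed between 11.3% and 14.9% throughout. The annotated exons of Iglc2 (612 bases, against 454 in Iglc1) include the one over Iglj2. Its mean level per kb, which was below that of Iglc1 in BL/10, depends on that length.

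Iglv1 made up 56.1%, 59.3% and 29.4% of lambda variable segment reads in NOD.B10, against 56.6%, 58.2% and 46.5% in BL/10. The difference of -5.55 percentage points gave p = 0.8 in a two-sided exact permutation test and was 3.89 percentage points, in the other direction, without NOD.B10 replicate 3. Iglv3 made up 36.3% of variable segment reads in NOD.B10 replicate 3 (95% Wilson interval 35.5% to 37.1%, 5473 of 15073 reads) and between 10.96% and 14.3% in the other 5 libraries. In the same library, Iglc2 reached its highest share and Iglv1 and Iglc1 their lowest. Against Iglv2 alone, its neighbor in the locus, Iglv3 was read 0.483, 0.528 and 1.06 times as often in NOD.B10 and 0.338, 0.421 and 0.359 times as often in BL/10, a ratio chosen after the values were seen and given without a test.

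**Figure D4:**
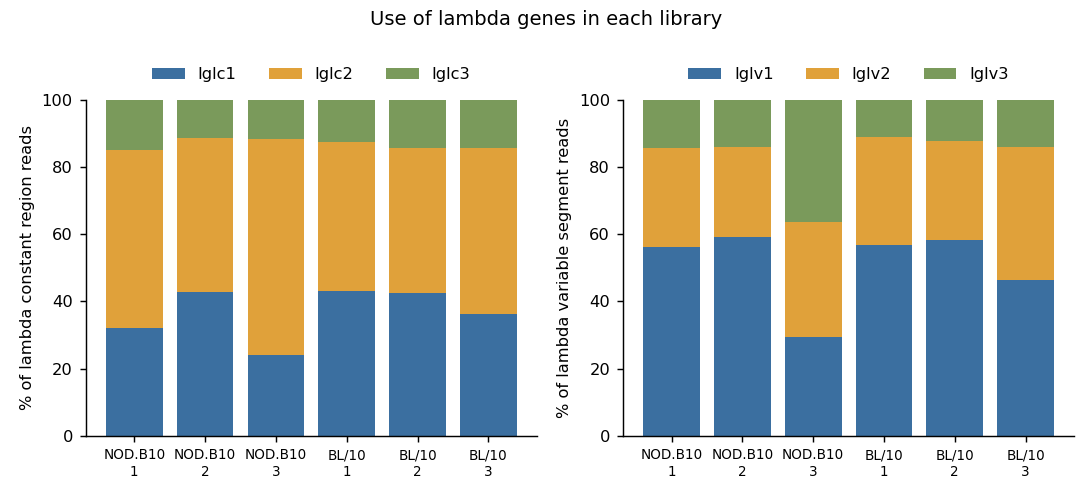
Share of lambda constant region reads (left) and of lambda variable segment reads (right) taken by each gene, in % (y axis), in each library (x axis). Iglv3 takes 36.3% in NOD.B10 replicate 3 and at most 14.3% elsewhere, and Iglc2 takes 64.3% in that library.

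The remaining genes of the locus gave few counts. A joining segment is 38 to 42 bases long, shorter than a read, and a read spliced from it into a constant region touches 2 genes and was left out. Iglj3 had counts of 260, 241 and 297 (NOD.B10) against 310, 149 and 189 (BL/10) (log2 fold change 0.32, SE 0.20, edgeR adjusted p = 0.292), and Iglj1 had 36, 59 and 40 against 118, 44 and 60 counts (log2 fold change -0.68, SE 0.35, edgeR adjusted p = 0.211). Iglj2 was at 0 counts in all libraries, and its 38 bases lie wholly within an annotated exon of Iglc2. The pseudogene segment Iglj3p had counts of 16, 18 and 20 (NOD.B10) against 15, 4 and 7 (BL/10) (edgeR adjusted p = 0.095). The pseudogene Iglc4 had 5 to 22 counts in a library, and Iglj4 had 1 count in all. None of the 4 of these 6 genes that were tested passed the threshold (edgeR), 1 had an unadjusted p under 0.05, and Iglj3 and Iglj3p passed it in some other settings.

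The lambda genes were set beside the other immunoglobulin genes, of which all tested constant and joining genes are shown in the plot of fold changes. Of 6 kappa constant and joining genes, Igkc and Igkj1 were higher and Igkj4 was lower in NOD.B10, and 3 did not pass (edgeR), where 9.11% of all tested genes were called higher and 8.22% lower. Kappa joining segments are 38 to 43 bases long, shorter than a read. Their counts leave out reads that also touch a variable segment or Igkc. Igkj4 had counts of 12, 11 and 10 (NOD.B10) against 59, 22 and 31 (BL/10) (log2 fold change -1.73, SE 0.36, edgeR adjusted p = 0.0171), and without NOD.B10 replicate 1 or 3 its log2 fold change was -1.80 or -1.62 but did not pass (edgeR adjusted p = 0.0617 and 0.0721). Of 8 heavy chain constant genes, Ighm, for IgM, and Ighg2c, for the IgG2c class, were higher (log2 fold change 0.86 and 2.04, edgeR adjusted p = 0.0177 and 0.00538), beside 9.11% of all tested genes, and 6 did not pass. The log2 fold change of Ighm was 0.72 to 0.93 over the 15 alternative settings, in 6 of which it did not pass. With age as a covariate Igkj1, Ighm and Ighg2c had log2 fold changes of 1.06, 0.77 and 1.5997. That setting compares NOD.B10 with BL/10 replicate 1 alone.

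**Figure D5:**
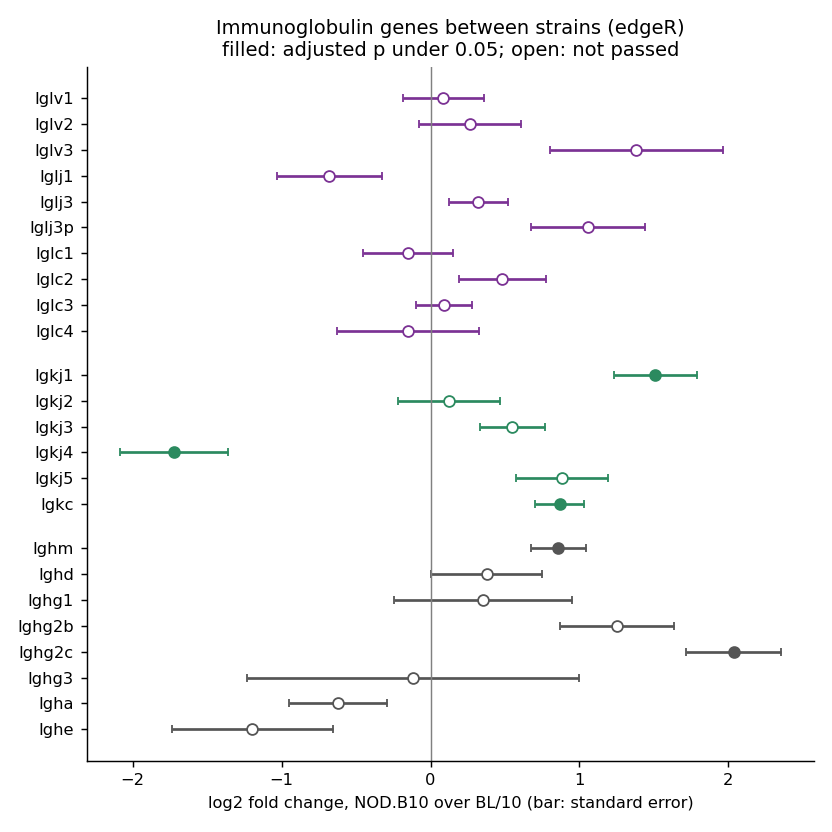
Log2 fold change of NOD.B10 over BL/10 (x axis) with its standard error for lambda (purple), kappa (green) and heavy chain (gray) genes, filled where the adjusted p of edgeR was under 0.05. All lambda genes are open symbols, from -0.68 for Iglj1 to 1.38 for Iglv3, and Igkc is filled at 0.87.

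Cell type markers were compared because B cells and plasma cells both express lambda. The summed level of 16 B cell markers (among them Cd79a and Cd79b, the signaling chains of the B cell receptor, and Ms4a1, which encodes CD20) was 5485, 4767 and 6017 CPM in NOD.B10 and 6203, 3644 and 3864 CPM in BL/10. All 16 had a positive log2 fold change (median 0.23), none passed the threshold in edgeR, and 2 had an unadjusted p under 0.05, while DESeq2 called 1 and limma-voom 2. Without BL/10 replicate 1, 10 of the 16 passed. In that setting 1917 of 15590 tested genes were called higher, against 1396 of 15330 in the main comparison. BL/10 replicate 1 was the highest and NOD.B10 replicate 3 the second highest library both for these markers and for the lambda constant regions. For each CPM of the B cell markers there was 0.136, 0.191 and 0.184 CPM of lambda constant regions in NOD.B10 and 0.183, 0.178 and 0.162 CPM in BL/10, against 1.82, 2.58 and 1.85 CPM and 1.12, 1.48 and 1.549 CPM of Igkc. These ratios were chosen after the values were seen. Per CPM of these markers, lambda overlapped between the strains and Igkc did not.

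Of 15 plasma cell markers, 8 were called higher in NOD.B10 and none lower (edgeR, median log2 fold change 0.53, where 9.11% of all tested genes were called higher). A positive log2 fold change was seen for 13 of the 15. Those of Tnfrsf17 and Sec11c were -0.26 and -0.11 and did not pass (edgeR adjusted p = 0.387 and 0.588). Sdc1, the surface marker CD138, had a log2 fold change of 0.81 (edgeR adjusted p = 0.0114), and Mzb1, a chaperone of antibody secretion, one of 0.87 (edgeR adjusted p = 0.0137). Xbp1, a regulator of the secretory program, had one of 0.63 (edgeR adjusted p = 0.00686). The summed level of the 15 markers was 4447, 5089 and 4793 CPM in NOD.B10 and 3700, 3406 and 3068 CPM in BL/10, without overlap. Jchain alone made up most of this sum, with 2622, 3045 and 2960 CPM in NOD.B10 and 2152, 2020 and 1662 CPM in BL/10. The count of 8 was 11 without BL/10 replicate 1, 5 without NOD.B10 replicate 1, and 4 without NOD.B10 replicate 2 or BL/10 replicate 2. It was 3 without NOD.B10 replicate 3 or BL/10 replicate 3. With age as a covariate, which leaves BL/10 replicate 1 alone for its strain, Mzb1 and Xbp1 had log2 fold changes of 0.52 and 0.60.

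Genes of the surrogate light chain, of recombination and of light chain control were read next. Igll1, which encodes the lambda5 part of the surrogate light chain of B cell precursors, had 0 counts in all NOD.B10 libraries and 10, 85 and 37 counts in BL/10. Taken against the floor of 3 counts in each NOD.B10 library, Igll1 was at least 15.1-fold lower in NOD.B10 (at least 7.18-fold without BL/10 replicate 2, a value added after the data were seen), and it did not pass the filter for testing. Vpreb1, its partner, had counts of 2, 2 and 5 (NOD.B10) against 5, 34 and 15 (BL/10). Vpreb3 had 209 to 425 counts in NOD.B10 and 340 to 509 in BL/10 (edgeR adjusted p = 0.195). Of 18 tested genes for recombination and light chain control, 2 were lower and 2 higher in NOD.B10, against 8.22% of all tested genes called lower and 9.11% called higher, so the count was near that of all genes. Rag1, a subunit of the recombinase that joins the segments, was lower, with 4, 5 and 8 counts against 126, 297 and 179 (log2 fold change -5.16, SE 0.53, edgeR adjusted p = 0.00082). Dntt, the polymerase that adds bases at the joints, was also lower (log2 fold change -2.18, SE 0.40, edgeR adjusted p = 0.0104). Irf4 and Foxo1, transcription factors with roles in light chain activation and recombinase expression, were higher (log2 fold change 0.53 and 0.57, edgeR adjusted p = 0.0431 and 0.0436). Irf4 was also on the plasma cell list and was counted in both lists. Irf4 did not pass in 7 of 15 alternative settings and Foxo1 in 6 of 15. The BL/10 libraries labelled 36 weeks had more counts of Igll1, Vpreb1 and Rag1 than BL/10 replicate 1. With age as a covariate, where strain rests on BL/10 replicate 1 alone, the log2 fold changes of Dntt and Rag1 were -1.80 and -4.33.

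The genes nearest in pattern to the lambda constant regions were found by the root mean square difference of centered log2 CPM over the 6 libraries. The nearest of 15327 genes was Gm16675, at 0.070, followed by Gimap8, Adamts6, Sec22a, Zfp459, Gimap3, Prpf40b, Zc4h2, Cd72 and Gm10552, at up to 0.135, where the median of all tested genes was 0.390. Cd72, a B cell surface receptor, was the only gene of the B cell list among these 10, and none of them was an immunoglobulin gene.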

How the data were processed

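RNA of 6 spleens, 3 of each strain, was sequenced by the authors with 50 cycle single-end reads. The table deposited by the authors gives raw counts of reads for each gene, not normalized. According to the table's header, the authors counted reads on exons with featureCounts version 1.5.1 and Ensembl annotation 84 of GRCm38, with settings that leave out reads fitting several places or genes and do not use strand. The paper names Tophat2 as the aligner, and the submitters' processing notes name HISAT2 version 2.0.5. The deposited gene lengths were used for levels per kb. Columns were matched to samples by the library number and strain in the descriptions. The description of BL/10 replicate 3 ends in another index than its column.

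Gene symbols came from GENCODE M21 (47224 of 47729 identifiers matched). Counts were filtered by filterByExpr (15330 genes), normalized by TMM and compared with the quasi-likelihood test of edgeR version 4.0.16 (R version 4.3.3), with BL/10 as the reference. Genes were called at a p under 0.05 after Benjamini-Hochberg adjustment. The standard error (SE) is the absolute log2 fold change over the square root of F. Shares were compared by exact permutation tests in scipy version 1.17.1. DESeq2 version 1.42.0 and limma version 3.58.1 gave alternatives. The members, lists and tests were chosen with earlier results of these data known. The named genes are the members, the other lambda, kappa constant and joining, heavy chain constant and surrogate genes, genes of the marker lists, and the 10 nearest in pattern. The smallest chi-square per degree of freedom between replicates was 13.4, and no libraries were merged. Intervals and the floor of 3 counts cover counting error only, and p-values measure the spread between these mice.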

Additional observations from a re-analysis of the deposited data

How the results depend on the processing

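The count of lambda genes called was 0 in the main comparison and under all 15 alternatives, and the 6 lambda genes kept their direction in 80 of 90 alternative values, with no value past the threshold. Over all genes, 2656 were called, between 1269 (without NOD.B10 replicate 1) and 4107 (without BL/10 replicate 1) with each replicate left out, and 943 with age as a covariate, where age varies only within BL/10. The lambda share difference ran from -4.74 to -2.47 percentage points with each replicate left out, that of Iglc1 from -12.7 to -3.29, and that of Iglv1 from -11.1 to 3.89.

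The fit with age as a covariate takes strain from NOD.B10 against BL/10 replicate 1 alone, the only BL/10 library labelled 26 weeks. In that fit, log2 fold changes turned to -0.30 (Iglc3), -0.40 (Iglv1), -0.13 (Iglv2), -0.10 (Iglj3), -0.21 (Igkj2), -0.36 (Ighd), -0.60 (Ighg1), -0.52 (Ms4a1), -0.14 (Cd79a) and -0.21 (Cd79b). Without NOD.B10 replicate 1 they turned to -0.052 (Ighg1) and 0.42 (Ighg3), without NOD.B10 replicate 2 to -0.11 (Iglv1), -0.15 (Igkj2) and 0.38 (Ighg3), and without NOD.B10 replicate 3 to -0.0076 (Iglc3) and -0.21 (Iglv2). Without BL/10 replicate 1 they turned to 0.24 (Iglc1), 0.60 (Iglc4) and 0.66 (Ighg3), without BL/10 replicate 2 to -0.0081 (Iglc3), -0.099 (Igkj2) and -0.061 (Ms4a1), and without BL/10 replicate 3 to -0.041 (Iglc3), -0.14 (Iglv1), -0.0066 (Ighg1) and -0.15 (Ms4a1). limma-voom gave 0.24 for Iglc4. With each replicate left out, the other ends of these ranges were -0.39 (Iglc1), 0.33 (Iglc3), 0.40 (Iglv1), 0.51 (Iglv2), -0.44 (Iglc4), 0.35 (Igkj2), 1.25 (Ighg1), -2.90 (Ighg3) and 0.48 (Ms4a1). Why values turned when a replicate was left out, or with limma-voom, was not tested.

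Replicate numbers did not pair the libraries (correlations of same-numbered deviations 0.054, 0.25 and -0.076). With the replicate block, 2889 genes and 0 lambda genes were called, and the lambda share gave p = 0.25 in an exact sign-flip permutation test, the smallest it allows. Placement of reads in the genome was not run, and windows of the annotated transcripts were used instead, an alternative chosen after seeing the data, under which the lambda share difference was -4.33 percentage points.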

Other observations

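Other cell type lists were read beside the lambda genes. Of 10 marginal zone B cell markers, 2 were higher (S1pr3 and Dtx1, log2 fold change 0.54 and 0.53) and 3 lower (Myof, Cd9 and Rassf4, -0.77, -0.51 and -0.36) in NOD.B10 (edgeR, adjusted p under the threshold), with a median of 0.14. Over all tested genes, 9.11% were called higher and 8.22% lower. Of 8 tested germinal center markers none passed in edgeR, with a median of 0.46 and 4 at an unadjusted p under 0.05. These 4 were Bcl6, Fas and S1pr2, with positive log2 fold changes, and Gcsam, with a negative one (-0.48). Of 14 T cell markers 11 were higher (median 1.21), of 7 natural killer cell markers 1 was higher and 1 lower, and of 9 macrophage markers 1 was higher and 1 lower, both near the counts that the shares over all genes give.

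Ighg3, the constant region of the IgG3 class, differed between mice of a strain more than between strains. It had counts of 744, 1280 and 20512 (NOD.B10) against 15719, 3518 and 5205 (BL/10), or 0.252%, 0.376% and 5.82% and 6.32%, 2.30% and 2.43% of heavy chain constant region reads. NOD.B10 replicate 3, the library with the high Iglv3 count, was thus also the NOD.B10 library with the high Ighg3 count, whereas the BL/10 library with most Ighg3 had no such Iglv3 count. Whether these reads come from the same cells was not tested.

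Among kappa joining segment reads, Igkj4 took 4.67%, 3.74% and 2.92% in NOD.B10 and 20.8%, 19.0% and 17.6% in BL/10, from 116 to 343 reads in a library. These segments are shorter than a read, and reads that also touch a variable segment or Igkc were left out. The shares are thus not a measure of joining segment use in finished transcripts. They were chosen after the values were seen.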
